A study of Oryza sativa with 2 samples.

Results

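Of 12487 OsbHLH002 peaks in the list, 782 had their summit beyond the 3′ end of the gene to which they were assigned. They were chosen by measured positions, as peaks entered for exactly 1 gene, under 2000 bp wide, with a summit past the last base of that gene, and with a gene description that did not contain the word transposon. The data were 1 library of chromatin pulled down with a FLAG antibody (the IP) and 1 input library of the same material. Both libraries were from transgenic rice plants in which the mutant Osbhlh002-1 carried the construct gOsbHLH002-3FLAG, so all values come from the tagged protein in that mutant. Neither the tissue nor the age or number of the plants is stated in the labels, and nor is the promoter of the construct. There was no replicate, so every comparison below describes 1 library and no test was made.

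The study asked where OsbHLH002, a transcription factor of the basic helix-loop-helix (bHLH) family, sits on the rice genome. Proteins of this family bind DNA as dimers, often at the short motif known as the E-box, and are usually looked for in promoters, the DNA just before a gene's start. A site past the 3′ end of a gene lies after the point where the transcript ends. In a compact genome such DNA may also be the promoter of the next gene, the end of a gene that runs the other way, or plain intergenic DNA. The related protein ICE1 of Arabidopsis switches on the CBF (DREB1) genes of the cold response.

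The list entered a peak for a gene when the peak overlapped a window of 2000 bp to either side of the gene's start. A summit past the 3′ end could thus be listed only for a short gene or through the edge of a peak. Of 10355 peaks on exactly 1 gene, 10190 were under 2000 bp wide, and 9620 of these were on genes not described as transposons. By the place of the summit these 9620 divided into the 782 past the 3′ end, 5777 upstream of the start and 3061 inside the gene. The rule left out 50 further narrow peaks past the end of transposon genes, 24 wider peaks, and 27 narrow peaks entered for several genes whose summit was past the end of every such gene.

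The genes were short, as the window required. Their median length was 786.5 bp (quartiles 467 and 1161 bp, range 153 to 2781 bp), against 2867 bp for genes with a peak upstream and 3309 bp for genes with a peak inside. Of the 782 genes, 505 were under 1000 bp and 13 were 2000 bp or longer. Among peaks on genes under 500 bp, 221 of 581 (38.0%) lay past the end. The share was 25.9% from 500 to under 1000 bp, 18.4% from there to under 1500 bp, 9.58% from there to under 2000 bp and 0.214% (13 of 6073) at 2000 bp or more. The share of summits inside the gene went the other way, 11.0% on genes under 500 bp and 37.5% at 2000 bp or more.

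**Figure D1:**
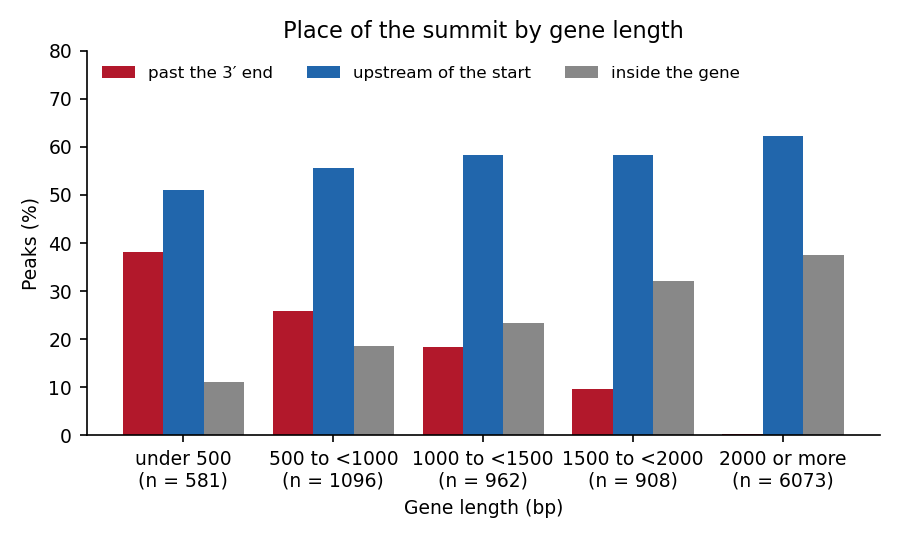
Share of peaks (vertical axis, percent) with the summit past the 3′ end (red), upstream of the start (blue) and inside the gene (grey), by gene length in bp (horizontal axis, with the number of peaks), for 9620 narrow peaks on exactly 1 gene. The red bars are tallest for genes under 500 bp (38.0%) and almost vanish at 2000 bp or more (0.214%).

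The summits were spread over the DNA behind the gene, and thinned out far from its end. There were 259 from 500 to 1000 bp past it, 142 from 1000 to 1500 bp and 48 beyond that. The rule used this position and the window limits it, so the spread is a description only. The median distance past the end was 603.5 bp (quartiles 299 and 990 bp, range 1 to 2611 bp). Within 100 bp of the end there were 63 summits (8.06%), within 250 bp 160 (20.5%), within 500 bp 333 (42.6%) and within 1000 bp 592 (75.7%). In 620 cases (79.3%) the whole peak lay beyond the gene, and in the other 162 its edge reached back into it. The median summit was 1545 bp downstream of the gene's start. In 157 cases the summit was more than 2000 bp from the start, and the peak was listed through its edge.

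Most of these peaks had a strength that was usual for the list. Fold here is the authors' ratio of IP fragments to local background at the summit. The median fold was 3.16 for peaks past the 3′ end (quartiles 2.62 and 4.20, range 1.74 to 21.2), 3.32 for peaks upstream of the start, 2.76 for peaks inside the gene and 3.13 over all listed peaks. The 95% interval of the median, from order statistics with peaks taken as separate units, was 3.13 to 3.31 past the end, 3.31 to 3.37 upstream and 2.72 to 2.76 inside. The summits held a median of 19 IP fragments past the end (range 10 to 170), 21 upstream, 17 inside and 20 over all peaks. A deposited q of 0.05 or less was reached by 724 of the 782 peaks (92.6%), and by 90.1% of all listed peaks. A fold of 5 or more was reached by 107 (13.7%), and by 13.9% of all listed peaks. Both shares are near those of the whole list and are no result about these peaks. The whole list mixes places of the summit. The q was reached by 93.0% of peaks upstream and 83.4% inside, and the fold by 16.8% upstream and 5.36% inside. Set against the whole list, the peaks past the end differed more in what they stood over. At the lowest, genome-wide background of 4.44 fragments were 277 (35.4%), against 25.5% upstream, 24.6% inside and 26.2% of all peaks.

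**Figure D2:**
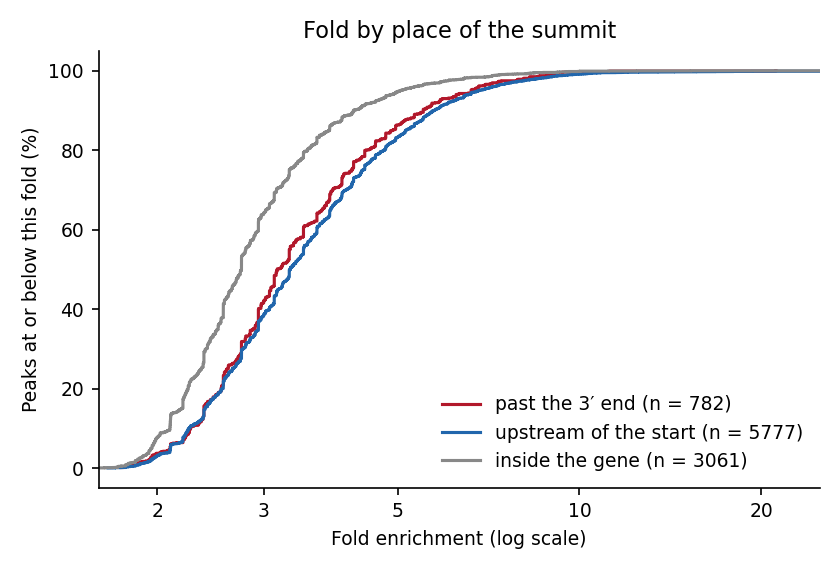
Cumulative share of peaks (vertical axis, percent) by fold enrichment (horizontal axis, log scale, shown up to a fold of 25) for peaks past the 3′ end (red, n = 782), upstream of the start (blue, n = 5777) and inside the gene (grey, n = 3061). The red curve runs close to the blue, with medians of 3.16 and 3.32, and both lie right of the grey, with a median of 2.76.

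Strong peaks were more frequent away from the gene's end than close to it. A fold of 5 or more was found for 82 of 449 summits over 500 bp past the end (18.3%), against 25 of 333 within 500 bp (7.51%). The medians were closer, 3.31 over 500 bp and 3.13 within 500 bp, so the gap was in the upper part of the range. Median widths were 448 bp over 500 bp and 444 bp within 500 bp. Among peaks under 1000 bp wide the shares were 13.3% over 500 bp and 6.11% within 500 bp. Among summits within 2000 bp of the start, which leaves out peaks listed through their edge, they were 14.0% and 7.41%. The share was also the higher over 500 bp on genes of both strands (17.6% against 9.38% on the minus strand, 19.2% against 4.96% on the plus strand) and at the genome-wide background (19.4% against 8.93%). These splits share peaks and library, and the distance of 500 bp was chosen after the values were seen.

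**Figure D3:**
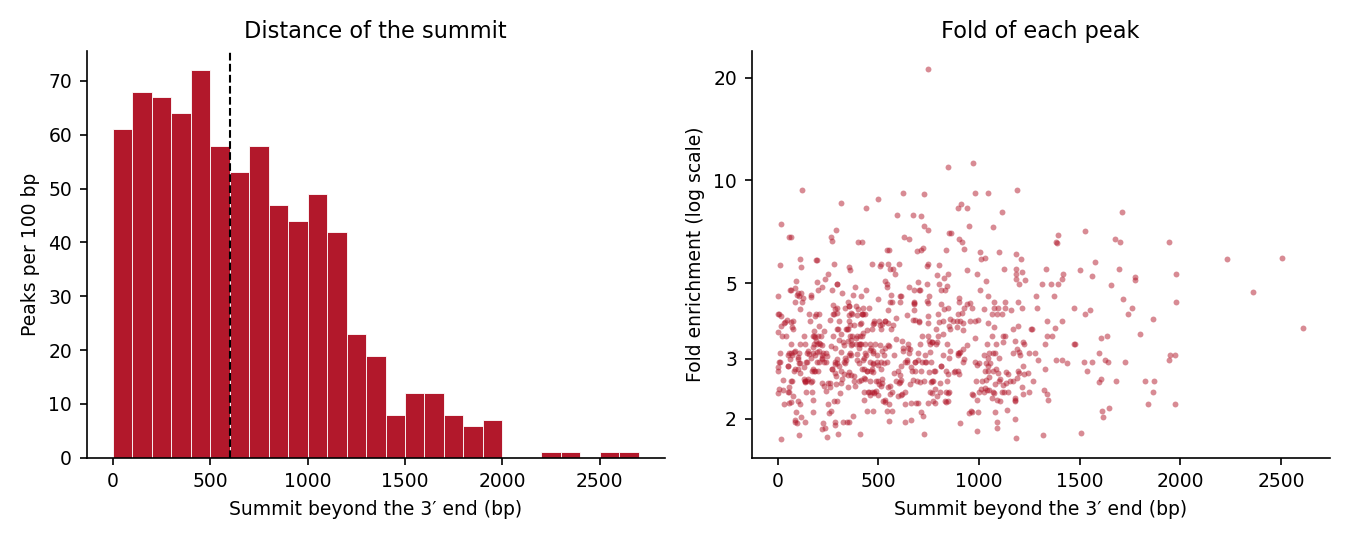
Left, number of peaks per 100 bp (vertical axis) by the distance of the summit beyond the 3′ end in bp (horizontal axis), with the median of 603.5 bp as a dashed line. Right, fold enrichment of each of the 782 peaks (vertical axis, log scale) by the same distance. Peaks of 5-fold or more are thinner on the left, with 25 of 333 within 500 bp and 82 of 449 beyond.

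Among the peaks past a 3′ end that the rule took, the strongest stood apart from the others. It was assigned to LOC_Os02g30955, an expressed protein gene on the minus strand of chromosome 2, and ran from 18492832 to 18494479 (1648 bp). Its summit at 18493637 lay 745 bp past the end of the 762 bp gene, with 170 IP fragments over a background of 7.08, a fold of 21.2 (18.1 to 24.6 from the 95% exact Poisson interval of the IP count). Coordinates are as the list gives them, counted from 1, on the authors' build, whose name is not given in the sources used here. Intervals of this kind cover counting error only. The next was the peak of LOC_Os08g15630, another expressed protein gene, with 60 fragments and a fold of 11.2 (8.60 to 14.4). Its peak ran from 9491345 to 9493006 on chromosome 8, with the summit 970 bp past the end. LOC_Os08g13160, described as a hypothetical protein, followed with 67 fragments and a fold of 10.98 (8.54 to 13.9), from 7821214 to 7821960 on chromosome 8. The intervals of LOC_Os08g15630 and LOC_Os08g13160 overlap each other, and neither overlaps that of LOC_Os02g30955. This order holds only for peaks under 2000 bp wide. The peak of LOC_Os08g31440, left out at a width of 2068 bp, had 121 fragments and a fold of 22.4, above the 21.2 of LOC_Os02g30955.

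The other 17 of the 20 strongest had folds from 7.89 to 9.38, and their intervals overlapped throughout. Of the 20, 10 were expressed or hypothetical proteins, among them LOC_Os11g11480 (50 fragments, fold 9.38) and LOC_Os09g20230 (54 fragments, fold 9.37), with LOC_Os01g16990 at 9.09 and LOC_Os04g08660 and LOC_Os07g29970 both at 8.27. The ZIM domain gene LOC_Os10g25290 had 49 fragments and a fold of 9.19 (6.85 to 12.1), with its peak from 13068360 to 13068982 on chromosome 10 and the summit 978 bp past the end. ZIM domain proteins include the JAZ repressors of jasmonate signalling. LOC_Os08g24210, described as an agmatine coumaroyltransferase, an enzyme that joins a phenylpropanoid acid to an amine, had 48 fragments and a fold of 8.60 (6.39 to 11.3), 317 bp past the end. LOC_Os05g45020, a CCCH zinc finger gene, had a fold of 8.27, and the hsp20/alpha crystallin gene LOC_Os02g10710, a small heat shock protein gene, had 59 fragments and a fold of 7.89 (6.04 to 10.1). The rest of the described genes were LOC_Os03g55810 (PE-PGRS family, fold 9.19), LOC_Os04g34130 (GTP-binding protein, 9.15), LOC_Os03g16960 (cysteine-rich repeat secretory protein, 8.82), LOC_Os08g43200 (DREB type, 8.54), LOC_Os08g37345 (DNA-binding protein, 8.09) and LOC_Os01g63690 (hs1, 7.91). Most of these summits lay well behind the gene: the nearest of the 20, that of LOC_Os09g20230, was 120 bp past the end, and the farthest, that of LOC_Os03g51420 with a fold of 8.09, was 1708 bp past it.

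Genes of the AP2/ERF superfamily, which encode plant transcription factors of cold, drought and ethylene responses, were the largest of 7 transcription factor families looked at, with 13 of the 782 peaks. Their folds ran from 2.10 to 8.54 with a median of 3.27, against 3.59 over all 97 listed genes of the superfamily, and 12 of the 13 had a q of 0.05 or less. Of 79 narrow single-gene peaks on such genes, 13 (16.5%) lay past the end, against 8.13% of all 9620 such peaks. Their genes were short, with a median of 1283 bp for the 79 against 2773 bp overall. Among genes under 2000 bp the shares were 23.6% of 55 AP2/ERF genes and 21.7% of 3547 genes in all. The 21.7% takes in 1920 genes described only as expressed or hypothetical proteins, at 25.9%. The other 1627, here called described genes, were at 16.7%. This limit does not hold length fixed, since the share fell from 38.0% under 500 bp to 9.58% at 1500 to under 2000 bp. The keyword classes below are of described genes, so the 16.7% stands beside each 21.7% given for them.

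The dehydration-responsive element-binding (DREB) type genes were among the stronger of these. LOC_Os08g43200 had the peak of highest fold, with 47 IP fragments over a background of 4.62 and a fold of 8.54 (6.32 to 11.3). It ran from 27319222 to 27320768 on chromosome 8, and the summit lay 913 bp past the end of the 872 bp gene. LOC_Os09g35010, a DREB1 gene of the cold response, had 29 fragments over 4.64 and a fold of 5.32 (3.62 to 7.56), with its peak from 20393888 to 20394757 on chromosome 9 and the summit 844 bp past the end of the 982 bp gene. Both genes are on the minus strand, and their intervals overlap. Of 3 other DREB1 genes looked for (LOC_Os09g35020, LOC_Os09g35030 and LOC_Os06g03670), 0 had a peak past the end by the same rule. LOC_Os04g52090, an AP2 domain gene, had 43 fragments and a fold of 6.33 (4.62 to 8.48), 723 bp past the end. LOC_Os06g08360, described as an ethylene-responsive element-binding protein, had 33 fragments and a fold of 6.25 (4.36 to 8.70), 835 bp past the end.

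The other 9 AP2 domain genes had folds under 5. LOC_Os07g42510 was at 4.60, with its summit 98 bp past the end, and LOC_Os05g49010 was at 3.51. LOC_Os04g46440 (3.27), LOC_Os06g07030 (3.16) and LOC_Os01g46870 (3.07) were near the median of all peaks. LOC_Os02g34260 was at 2.57, and LOC_Os02g52670 and LOC_Os04g56150 were both at 2.39, on 12 fragments each. The weakest was LOC_Os02g06330, with 13 fragments and a fold of 2.10 (1.19 to 3.49), and it did not reach a q of 0.05.

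Other factor families held few such peaks, and their genes were longer than AP2/ERF genes, with medians from 2222 bp (WRKY) to 3431 bp (bZIP). On genes under 2000 bp their shares ran from 7.69% of 13 (NAC) to 17.6% of 17 (WRKY), against 21.7% of all. The bHLH genes, the family of OsbHLH002 itself, had 2 of 47 narrow single-gene peaks past the end, LOC_Os06g10820 (25 fragments, fold 4.60, 563 bp past the end) and LOC_Os04g23440 (24 fragments, fold 4.60, 107 bp). MYB genes had 3 of 72, with LOC_Os05g51160 at 4.23, LOC_Os05g48010 at 4.08 and LOC_Os02g41510 at 3.50. WRKY genes, known from defence, had 3 of 45, namely WRKY13 (LOC_Os01g54600, 4.97), WRKY60 (LOC_Os03g45450, 3.01) and WRKY10 (LOC_Os01g09100, 2.26). Homeobox genes had 2 of 38, LOC_Os03g10210 (4.95, 742 bp) and LOC_Os01g63510 (3.36, 1119 bp). NAC genes had 1 of 39, LOC_Os11g07700, which at 11 fragments and a fold of 2.21 did not reach a q of 0.05. The bZIP genes had 1 of 19, LOC_Os01g65970 (HBP-1b, 3.81). Over the 7 families, AP2/ERF included, 25 of 339 narrow single-gene peaks (7.37%) lay past the end, close to the 8.13% of all. The 25 include the 13 AP2/ERF peaks, and each of the other families alone was below 8.13%.

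Zinc finger genes had 20 of 288 peaks past an end (6.94%, against 8.13% of all), and on genes under 2000 bp 16.5%, against 21.7% of all. Their median fold was 2.92, against 3.22 over the 375 listed genes of the class. After LOC_Os05g45020 came the C3HC4 (RING) type genes LOC_Os08g31720 (fold 6.62, 1700 bp past the end), LOC_Os12g01750 (4.78) and LOC_Os06g14200 (4.52). Proteins with a RING domain often act as ubiquitin ligases. Among ubiquitin genes themselves there were 5 of 73 (6.85%), and 22.7% of 22 on genes under 2000 bp. They were led by LOC_Os08g08700 (4.23), LOC_Os01g48280 (3.36), LOC_Os01g68950 (3.05) and LOC_Os05g42340 (2.91). F-box genes, whose products pick targets for ubiquitination, had 6 of 147 (4.08%), and 10.9% of 55 on genes under 2000 bp. OsFBO3 (LOC_Os04g31610) led with 4.86, before OsFBX93 (LOC_Os03g26840, 3.91), OsFBK24 (LOC_Os11g04330, 3.01) and LOC_Os02g26670 (2.84).

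Calcium signalling genes had 5 of 70 peaks past the end (7.14%, against 8.13% of all). On genes under 2000 bp the share was 21.7% of 23, as for all such genes. They had the highest median fold of the planned classes with at least 3, 4.96 against 3.55 over the 97 listed genes of the class. OsCML23 (LOC_Os01g72540), a calmodulin-related calcium sensor gene, had 43 fragments and a fold of 7.11 (5.19 to 9.52), 1525 bp past the end of a gene of 456 bp. OsCML25 (LOC_Os11g01390) and the IQ motif gene LOC_Os10g28420 each had 26 fragments and a fold of 4.96, and the EF hand gene LOC_Os03g29770 was at 3.22. With 5 genes, a median rests on a single peak.

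Auxin genes had 3 of 56 (5.36%, against 8.13% of all), and 11.5% of 26 on genes under 2000 bp, against 21.7% of all. The SAUR genes, a family of short genes induced by auxin, were OsSAUR10 (LOC_Os02g30810, fold 5.85, 195 bp past the end) and OsSAUR32 (LOC_Os08g02530, 3.88, 956 bp), and LOC_Os04g55680, described as an indole-3-acetate glucosyltransferase, was at 2.89. Of 22 narrow single-gene peaks on gibberellin genes, 0 lay past the end. A count of 0 in 22 allows a share of up to 13.6% (3 counts, counting error only), which is above the 8.13% of all peaks.

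Lipid transfer genes, which encode small secreted proteins, had 5 of 22 (22.7%, against 8.13% of all), and on genes under 2000 bp 35.7% of 14, against 21.7% of all. The strongest were LOC_Os03g01320 (LTPL116) at 4.23, LOC_Os03g20760 (LTPL66) at 4.21, LOC_Os10g40480 (LTPL143) at 3.48 and LOC_Os12g02300 (LTPL26) at 3.31. VQ domain genes, whose products are known as partners of WRKY factors, were looked at after the values were seen and had 7 of 21, with folds from 3.36 to 4.96 and a median of 4.60, against 4.13 over the 26 listed genes of the class. Of their 21 peaks 20 were on genes under 2000 bp, where 35% lay past the end, against 21.7% of all such genes. Of 2 further classes looked at after the values were seen, harpin-induced genes had 5 of 16 (31.25%, against 8.13% of all). On genes under 2000 bp this was 38.5% of 13, against 21.7% of all. Their median fold was 3.55 against 3.31 over the listed genes of the class. Plastocyanin-like genes had 4 of 15 (26.7%), and 28.6% of 14 on genes under 2000 bp, with a median fold of 2.85 against 2.97. Transporter genes had 10 of 230 (4.35%, against 8.13% of all), but on genes under 2000 bp 37.5% of 24, against 21.7% of all. The strongest were the metal transporter LOC_Os01g53210 (Nramp3) at 5.55, the phosphate transporter LOC_Os02g39750 at 5.17, LOC_Os12g06050 (MATE) at 4.44 and LOC_Os11g41850 at 4.41. Heat shock genes had 4 of 51 (7.84%), and 26.7% of 15 on genes under 2000 bp. After LOC_Os02g10710 came LOC_Os01g04360 (4.60), the DnaJ gene LOC_Os03g18870 (2.55) and LOC_Os03g16040 (2.38), so the class held both strong and weak peaks.

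Among enzymes of the wall and of secondary metabolism, glycosyl transferase genes had 7 of 103 (6.80%, against 8.13% of all). On genes under 2000 bp this was 17.5% of 40, against 21.7% of all. Their median fold was the lowest of the classes with at least 3, 2.73 against 3.30 over all listed genes of the class. They were led by LOC_Os07g10160 (4.41), LOC_Os03g49550 (3.85), LOC_Os09g21160 (3.29) and LOC_Os11g09700 (2.73). Peroxidase genes had 3 of 37 (8.11%, and 16.7% of 18 on genes under 2000 bp): LOC_Os10g39160 at 3.90, LOC_Os04g59150 at 3.86 and LOC_Os06g35480 at 2.76. Cytochrome P450 genes had 2 of 68 (2.94%, and 8% of 25 on genes under 2000 bp), LOC_Os06g30640 at 4.41 and LOC_Os01g27890 at 3.49.

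In the 6 classes that follow, the share of narrow single-gene peaks past the end was below the 8.13% of all. On genes under 2000 bp it was below the 21.7% of all such genes, and below the 16.7% of the 1627 described ones. Being below the 8.13% and the 21.7% was not particular to the 6 classes. The factor families other than AP2/ERF were below both of these shares too. So were zinc finger, F-box, auxin, gibberellin, peroxidase, cytochrome P450 and glycosyl transferase genes. Kinase genes other than receptor-like ones had 3 of 395, at 4.09 (LOC_Os09g12300), 2.94 (LOC_Os01g50400) and 2.88 (LOC_Os02g41580). Receptor-like kinase genes had 1 of 139, OsWAK54 (LOC_Os04g55750, described as an OsWAK short gene, 3.71). The median gene length was 4418 bp for the narrow single-gene peaks of other kinases and 3668 bp for those of receptor-like kinases. On genes under 2000 bp the shares were 8.82% of 34 for other kinases, 8.33% of 12 for receptor-like kinases, 12.5% of 16 for RNA and translation genes, 10% of 10 for pentatricopeptide genes, 11.8% of 34 for ribosomal genes and 11.8% of 17 for histone genes. These counts are small, and the differences were not tested. RNA and translation genes had 2 of 203, LOC_Os04g55980 (a glycine-rich RNA-binding protein gene, 4.23) and LOC_Os03g07440 (2.50). Pentatricopeptide genes had 1 of 41, LOC_Os06g29290 (4.04). Ribosomal genes had 4 of 83: LOC_Os04g38750 (plastid 30S protein, 5.86), LOC_Os10g41050 (3.08), LOC_Os08g02840 (3.02) and LOC_Os06g48780 (2.72). Histone genes had 2 of 36, LOC_Os10g39410 (2.94) and LOC_Os09g38020 (2.61).

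**Figure D4:**
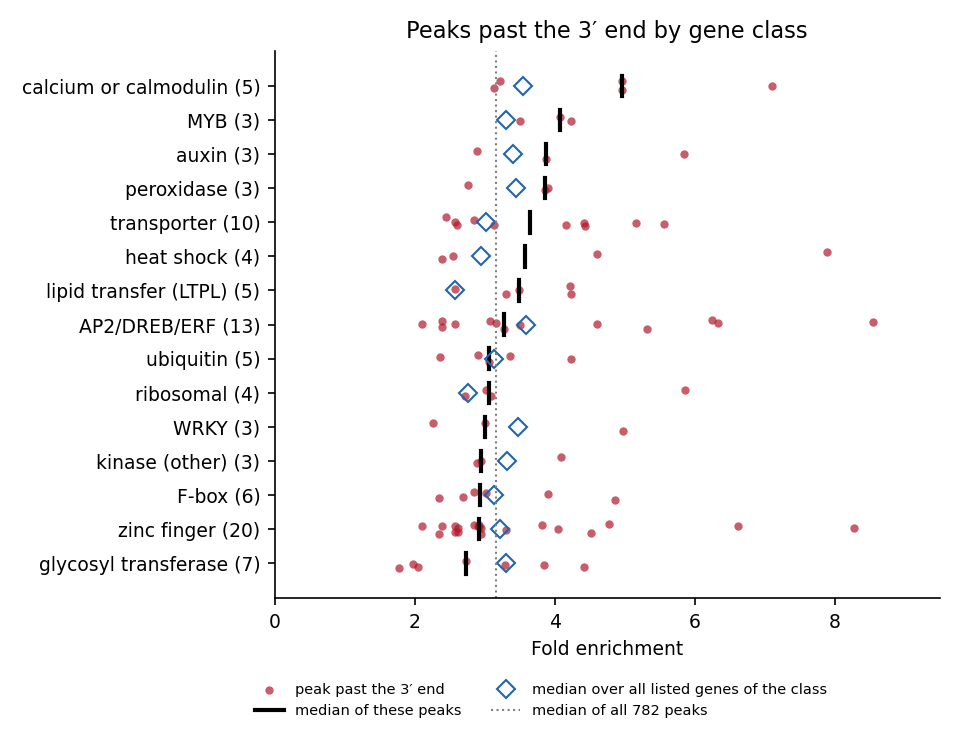
Fold enrichment (horizontal axis) of each peak past the 3′ end (red points, spread vertically for sight) in the described keyword classes with at least 3 such peaks (number in brackets), with their median (black bar), the median over all listed genes of the class (blue diamond) and the median of all 782 peaks (dotted line, 3.16). The AP2/DREB/ERF points span 2.10 to 8.54, and the calcium class has the rightmost bar at 4.96.

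Most of the genes had no described function. Of the 782, 423 were described only as expressed proteins and 79 as hypothetical or conserved hypothetical proteins, together 64.2%, against 28.5% of the peaks upstream of a start and 28.7% of those inside a gene. Unnamed genes were short as well, and among genes under 1000 bp the share was 78.4% past the end, 70.6% upstream and 72.7% inside. The median fold was 3.13 for the unnamed genes and 3.31 for the 280 described ones. Next to LOC_Os08g13160 and LOC_Os03g51420, the strongest hypothetical protein genes were LOC_Os03g15490 (6.80) and LOC_Os04g45640 (5.68).

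Over all 782 peaks, the median distance from the summit to the nearest other listed gene start was 5989 bp (quartiles 3267 and 12317 bp, range 21 to 230899 bp). For 691 of them the list held no other start within 2000 bp. A gene with its start that close would itself have been listed if the list is whole, since its window would overlap the peak. The other 91 peaks (11.6%) had another listed start within 2000 bp, in 95 pairs, and the neighbour carried a peak of its own. The rule took only single-gene peaks, so a peak also entered for such a neighbour was left out. A neighbour could appear here only if the list kept a different peak for it. The distances and the split thus depend on the rule. They do not show how often peaks behind genes lie near another start. In 57 pairs the summit lay upstream of the neighbour's start, and in 55 of these both genes were on the same strand, head to tail, so the site was behind the one gene and in front of the next. In 35 of the 57 the peak behind the first gene had the higher fold of both. The median fold was 3.31 for the 91 and 3.16 for the 691. In 38 pairs the summit lay downstream of the neighbour's start, 23 of them with the genes on opposite strands.

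Several of these head-to-tail sites lay between members of a gene family. The peak behind BBTI4 (LOC_Os01g03340), a Bowman-Birk trypsin inhibitor gene, had 44 fragments and a fold of 6.75 (4.95 to 9.01) and lay 899 bp past its end, 249 bp upstream of the start of BBTI3 (LOC_Os01g03330). The peak entered for BBTI3 itself had 14 fragments and a fold of 2.76. Behind the glycosyl hydrolase gene LOC_Os11g47610 a summit of fold 5.13 lay 170 bp upstream of LOC_Os11g47600, another glycosyl hydrolase gene, which was entered with a peak of fold 2.26. Behind the glutathione S-transferase gene LOC_Os01g49720 a summit of fold 4.91 lay 217 bp upstream of LOC_Os01g49710, of the same family, entered with a fold of 1.96. Behind MBTB6 (LOC_Os04g53400) a summit of fold 4.78 lay 477 bp upstream of MBTB7 (LOC_Os04g53410), entered with a fold of 2.76. In each of these pairs the stronger peak was listed for the gene behind which it lay and not for the gene whose start it was nearer to. This listing follows from the rule, since a peak entered for both genes would have been left out. It is no result about these sites. LOC_Os11g47610, LOC_Os01g49720 and MBTB6 were picked out after their values were seen.

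The other 9 of the 10 strongest peaks with a neighbour's start within 2000 bp had folds from 5.52 to 8.09. Behind LOC_Os04g21940 a summit of fold 7.35 lay 716 bp upstream of WRKY51 (LOC_Os04g21950), entered with a fold of 6.98. Behind LOC_Os08g37345, with a fold of 8.09, the next start was that of LOC_Os08g37340 at 1118 bp, and behind LOC_Os01g58130, with a fold of 7.34, that of LOC_Os01g58114 at 1081 bp. Behind the BES1/BZR1 homolog LOC_Os07g39220, a gene of the family of brassinosteroid response factors, a summit of fold 5.52 (3.75 to 7.84) lay 1123 bp past the end and 1939 bp upstream of LOC_Os07g39210. LOC_Os05g10754 (5.77), LOC_Os06g10400 (5.70), LOC_Os06g05355 (5.58) and LOC_Os01g72009 (5.52) had theirs at 1071, 1538, 1725 and 1214 bp. Of these, LOC_Os06g05355 had its neighbour on the other strand, the NBS-LRR gene LOC_Os06g05359, and itself lay between the summit and that start. LOC_Os01g43570 (5.88) differed in place, with its summit 1744 bp downstream of the start of LOC_Os01g43560.

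More of the 782 genes were on the minus strand (464, 59.3%, 95% exact binomial interval 55.8 to 62.8%) than on the plus strand (318). Peaks upstream of a start leaned the other way, with 46.3% on minus strand genes, and peaks inside genes were at 52.6%. The median fold was 3.13 on the minus strand and 3.25 on the plus strand. The list keeps 1 peak per gene, and in 561 of 814 cases in which another listed peak also overlapped a gene's window, the kept peak was the one with the lower coordinate, which for a minus strand gene is the side of its 3′ end. On chromosome 1 that share was 92.6% (125 of 135 cases) and 72.2% of the peaks past an end were on minus strand genes (104 of 144). On chromosomes 2 to 12 the shares were 64.2% (436 of 679) and 56.4% (360 of 638). Peaks upstream of a start were on minus strand genes in 41.5% on chromosome 1 and 47.2% on the others, where 48.4% and 49.5% of all listed genes were on the minus strand. Among the other chromosomes the 2 measures did not keep the same order. Chromosome 2 had the lowest share of kept lower peaks (58.8%) with 46 of 73 peaks past an end on minus strand genes, and chromosome 7 had 66% kept lower with 18 of 37. The part of the kept peak in the strand split was not tested.

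Among the 782, 84 genes had another listed peak in their window, 63 of them on the minus strand. In 66 of the 84 the kept peak had the lower coordinate, and in 47 the peak not kept was the stronger. The peak not kept lay upstream of the gene's start in 56 cases, inside the gene in 16 and past its end in 12. The VQ domain gene LOC_Os02g15290, for example, was entered with a summit of fold 4.02, 184 bp past its end, while a peak of fold 8.82 lay 157 bp upstream of its start. The plastocyanin-like gene LOC_Os08g37670 was entered at 3.00, 101 bp past the end, with a peak of fold 7.94 lying 112 bp upstream of the start. Both were picked out after their values were seen. Without these 84 genes, 401 of 698 (57.4%) were on the minus strand. Peaks with no entry of their own cannot be seen in this way, and 9584 of the 22071 peak numbers had none.

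**Figure D5:**
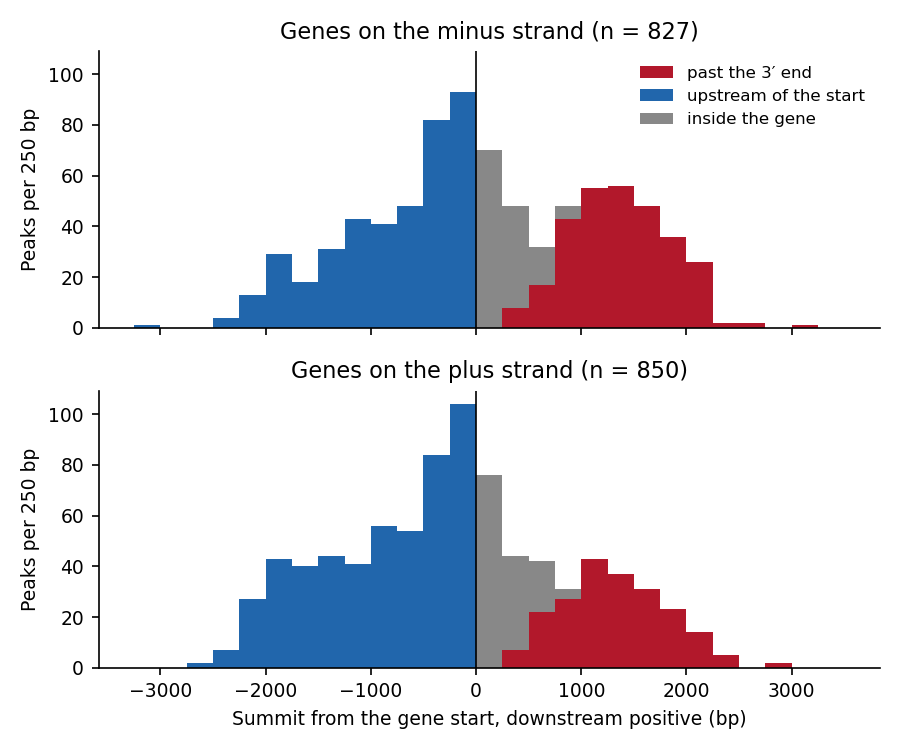
Number of peaks per 250 bp (vertical axis) by the distance of the summit from the gene start in bp (horizontal axis, downstream positive), stacked as past the 3′ end (red), upstream (blue) and inside (grey), for genes under 1000 bp on the minus strand (top, n = 827) and the plus strand (bottom, n = 850). At 1000 to 2000 bp the red side is the taller on the minus strand (195 downstream, 121 upstream) and the blue side on the plus strand (134 downstream, 168 upstream).

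On genes under 1000 bp, both sides of the start can be set against each other at equal distance. At 1000 to 2000 bp downstream, where every summit was past the end, there were 329, against 289 at the same distance upstream. Within 1000 bp the order was reversed, with 391 summits downstream, 124 of them past the end, against 562 upstream. At 1000 to 2000 bp the median fold was 3.13 past the end and 3.31 upstream. The counts at that distance went opposite ways on the strands, 195 downstream against 121 upstream on minus strand genes and 134 against 168 on plus strand genes, so no side of the start led on both.

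The peaks lay on 12 chromosomes, with 144 on chromosome 1, 113 on chromosome 3, 85 on chromosome 4 and 33 on chromosome 12. As a share of narrow single-gene peaks they ranged from 5.29% on chromosome 7 to 9.83% on chromosome 4. The median fold per chromosome ran from 3.05 on chromosome 6 to 3.68 on chromosome 4.

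At the edges of the rule, the summits of LOC_Os03g15790 (a C2H2 zinc finger gene, fold 2.38), LOC_Os03g20400 (a hypothetical protein gene, 3.59) and LOC_Os11g37960 (WIP4, a wound-induced protein gene, 2.76) lay 1 bp past the end. Those of LOC_Os01g60760 (4.07) and LOC_Os02g26670 were 2 and 4 bp past it. The nearest summits still inside a gene were 5, 6 and 7 bp before the end, at LOC_Os03g09230 (2.43), LOC_Os07g42580 (2.58) and LOC_Os05g08760 (4.91). The widest peaks taken were 1980 bp (LOC_Os03g08980, fold 7.89), 1950 bp (LOC_Os03g05750, 4.20) and 1906 bp (LOC_Os03g15490, 6.80). The narrowest left out were 2048 bp (LOC_Os04g51680, 2.97), 2055 bp (LOC_Os07g42370, 5.39) and 2068 bp (LOC_Os08g31440, 22.4). That last peak, with 121 fragments, would have had the highest fold of the group. Among peaks left out because they were entered for more than 1 gene, the strongest had folds of 6.08 (LOC_Os04g38490 and LOC_Os04g38500), 5.70 (LOC_Os04g45500 and LOC_Os04g45510) and 4.23 (LOC_Os03g18090 and LOC_Os03g18100).

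At the far end, 4 summits were more than 2000 bp past the end of their gene. The farthest was that of LOC_Os08g37360, 2611 bp past the end, with a fold of 3.68. LOC_Os09g23680 (2506 bp, fold 5.92), LOC_Os04g39340 (2361 bp, 4.71) and LOC_Os01g43570 (2230 bp, 5.88) followed, and then LOC_Os12g43870 at 1980 bp (5.33). Their genes were between 318 and 453 bp long, and their peaks 1000 to 1330 bp wide, so each was listed through its edge.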

How the data were processed

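1 IP and 1 input library were measured. The submitters' processing notes name MACS2 (2.2.7.1), Bowtie2 (2.4.2), Picard and SAMtools. Genome build and calling threshold: not given in the sources used here. Per the labels' protocols, tissue was fixed with 1% formaldehyde for 15 min and sonicated to 300 to 500 bp. The authors deposited 1 peak list joined to genes, with fold enrichment as a linear ratio, p and q as −log10, and a score per peak, per the file headers; the score was not used. The list belongs to the single IP; how the input entered the calling is not given in the sources used here.

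Fragment counts were solved from the deposited fold and p, taken to be MACS2's (pileup + 1) / (background + 1) and Poisson p. This gave 1 whole-number answer for 12486 of 12487 peaks, within 0.0001 times the −log10 p plus 0.0002. On 1497 simulated peaks the solver recovered 1497. Peaks within 0.01 of the lowest background counted as genome-wide background. Total reads per library are unknown here; intervals cover counting error only, since no molecular identifiers are named in the labels. Python 3.11.15, pandas 2.3.3, numpy 2.4.6, scipy 1.17.1 and matplotlib 3.10.9 were used.

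The members and lists were chosen with earlier results of these data known. The genes named were the 20 of highest fold, all AP2, DREB and ERF genes, up to 4 per other keyword class (27 classes in all, a gene counted in the first that matched), the 5 nearest to and the 5 farthest from the 3′ end, the 5 with most fragments, the 10 strongest near another start, and 3 peaks on each side of each threshold; the listed DREB1 identifiers were looked up too. Others are marked as picked afterwards. E-boxes at summits, planned, were not looked for, since no genome of the build was used here.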

Additional observations from a re-analysis of the deposited data

How the results depend on the processing

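Over 12 other settings, 93 of 108 values stayed within the interval of the reported value, or for the count of peaks within 1.5 times of it. Requiring a q of 0.01 or less moved the median fold to 3.49, the share at 5-fold or more to 17.1% and the median IP fragments to 21, since it removes the weakest peaks. At the genome-wide background alone, 277 peaks were left, with a median fold of 3.49, 97.1% at a q of 0.05 or less and a median of 18 fragments. With peaks under 1000 bp wide, the share at 5-fold or more was 10.1% and the median 18 fragments. With the whole peak beyond the gene, the median distance was 743.5 bp and the median gene length 699 bp, and with summits at least 250 bp past the end the gene length was 704 bp. Keeping transposon genes gave 60.3% unnamed genes. Another listed start was found near 9.17% of peaks whose gene had no other listed peak in its window, and near 5.50% when looked for within 1000 bp. That restriction to genes with no other peak, and all settings for strand and for unnamed genes, were chosen after seeing the data. No paired analysis was possible because there was 1 IP and 1 input library. For the same reason no replicate could be left out. Depth limits single peaks: LOC_Os01g48280, at the median of 19 fragments, had a fold of 3.36 with an interval of 2.09 to 5.16, wider than the quartiles of all 782 peaks.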
